A study of Mus musculus with 6 samples.

Results

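The 45 genes described here are genes that interferons induce in mouse cells, together with Sp100 and Pml, which encode core proteins of nuclear bodies and are themselves interferon-inducible. They were taken by gene name from a table of 15238 genes, and all 45 were measured, each on 1 row of it. The cells were intestinal fibroblasts of Balb/c pups aged 9 postnatal days, sorted as podoplanin-positive after exclusion of cells bearing CD45, EpCAM or CD31, and their RNA was sequenced in bulk. There were 3 wild-type libraries (replicates 1, 3 and 4) and 3 DdblGata1 libraries (replicates 4, 9 and 10), the latter from pups without eosinophils. The DdblGata1 allele is a deletion in the promoter of Gata1, a transcription factor of blood cells, and it is carried in the germline, so that the fibroblasts carry it too. By its title, the series is about eosinophils and the formation of villus smooth muscle after birth. No label says that the libraries came from separate animals, so the p-values measure the spread between these libraries, which may be technical.

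Type I and type III interferons bind receptors at the cell surface that activate the kinases JAK1 and TYK2, and a complex that includes STAT2 and IRF9 then binds the interferon-stimulated response element (ISRE) in the promoters of responding genes. Interferon gamma acts through the gamma-activated site (GAS), and IRF1 is among the early genes it induces. SP100 and PML are modified by SUMO and gather in PML nuclear bodies, where they take part in silencing of viral genomes and in chromatin regulation. In the intestine, tonic interferon signalling and sensing of microbes by stromal and epithelial cells set the basal level of such genes.

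RefSeq promoter windows on GRCm38.p6, from 250 bases before to 50 after the start site, were found for 35 of the 45 genes. The ISRE core, written GAAA, any 2 bases, GAAA, occurred on either strand in 17 of these 35 (48.6%) and in 3.99% of 27025 genes of the promoter table. The GAS letters TTCNNNGAA, which read alike on both strands, occurred in 11 (31.4%) and in 9.55% of all genes. The windows of Sp100 and Pml held neither. A version of the ISRE with 1 more base between the 2 repeats was searched after the Sp100 promoter had been seen. It occurred in 7 of the 35 genes (20%), Sp100 among them, and in 3.17% of all genes; a match of it can overlap an ISRE match, as in Ifit3. These are matches of letters and not measured binding.

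The following stretches of 60 bases, all upstream of the start site and written 5′ to 3′ on the strand of the gene, show the Sp100 match beside those of members whose expression is described below. Capitals mark the matched letters; a match on the opposite strand shows TTTC in place of GAAA. Ifit1 is not among the genes the naming rule took and was added after its values were seen.
Sp100, wider spacing, chr1:85649916-85649975, plus strand: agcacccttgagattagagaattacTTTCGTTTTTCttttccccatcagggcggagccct
Ifih1, wider spacing, chr2:62646328-62646387, minus strand: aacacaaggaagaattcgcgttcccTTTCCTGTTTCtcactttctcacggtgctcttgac
Lgals3bp, wider spacing, chr11:118401960-118402019, minus strand: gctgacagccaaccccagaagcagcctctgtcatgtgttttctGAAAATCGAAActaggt
Isg15, ISRE, chr4:156200850-156200909, minus strand: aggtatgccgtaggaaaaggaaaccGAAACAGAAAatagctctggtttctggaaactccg
Ifit1, ISRE, chr19:34640779-34640838, plus strand: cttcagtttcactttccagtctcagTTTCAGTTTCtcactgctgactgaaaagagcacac
Gbp2, ISRE, chr3:142620579-142620638, plus strand: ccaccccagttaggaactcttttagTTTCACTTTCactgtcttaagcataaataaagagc
Bst2, ISRE, chr8:71537562-71537621, minus strand: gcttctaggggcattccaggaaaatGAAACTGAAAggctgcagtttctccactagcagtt
Irf1, GAS, chr11:53769898-53769957, plus strand: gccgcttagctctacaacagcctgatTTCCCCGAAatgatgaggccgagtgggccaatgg

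The libraries held 28110454 to 31210800 estimated counts over the gene table, so that a count of 0 allows up to 0.0961 to 0.107 CPM (counts relative to library size, scaled between libraries with TMM factors), for counting error only. Gata1 had 1 estimated count in a single wild-type library and 0 in the other 5, so it does not check the genotype labels. All 9 fibroblast markers were measured, and Pdgfra, a surface receptor of gut fibroblasts, lay between 688 and 1080 CPM. Some markers of stromal and neighbouring cells differed between genotypes, as Sp100 did. Thy1, a surface protein of fibroblasts, was called higher by DESeq2 (1.22, adjusted p 0.00449), as were Tek of the endothelial list and Wt1 of the mesothelial list. No other marker of the endothelial or mesothelial list separated the genotypes. Of the 9 endothelial markers 5 had log2 fold changes below 0, and the mesothelial markers Msln, Upk3b and Lrrn4 had 0.21, 0.02 and 0.40. All 4 pericyte markers were lower in DdblGata1 without overlap, and all 5 smooth muscle markers had values below 0, of which DESeq2 called Des (adjusted p 0.0303). The part of these cells in the members' values was not tested. Among markers of excluded cells, wild-type replicate 1 stood apart. The summed level of 10 epithelial markers was 1309 CPM there and 238.6 to 349.4 CPM in the other 5 libraries, and that of 12 measured leukocyte markers was 115 CPM against 38.8 to 56.2 CPM. Of 7 eosinophil markers only Ccr3 was in the gene table, at 0.360 to 1.10 CPM in wild-type and 0.166 to 0.258 CPM in DdblGata1 libraries. The transcript files held few counts of the other 6, with no common direction. Prg2 had 7, 3 and 2 estimated counts in wild-type and 0, 26 and 11 in DdblGata1, Il5ra had 1.12 to 7.41 against 1 to 13.6, Siglecf had 5 to 16 against 1 to 7, Ear1 and Ear2 had at most 4 in any library, and Epx had none. In bulk RNA, fewer cells of a type and less RNA per cell cannot be told apart.

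Between genotypes the 45 genes showed no common direction. Fitted log2 fold changes, taken as DdblGata1 minus wild-type, lay above 0 for 24 genes (53.3%; 49.3% of all genes tested) and below 0 for 21, with a median of 0.05 beside -0.01 over all genes. With edgeR's quasi-likelihood test none of the 45 passed an adjusted p of 0.05, nor did any of the 15238 genes (percent called 0 in each direction). At an unadjusted p under 0.05, 3 members were higher in DdblGata1 (6.67%, against 6.03% of all genes) and 1 was lower (2.22%, against 4.23%). DESeq2, run as an alternative, called 1 member, Sp100, as higher (2.22%, against 0.971% of all genes with an adjusted p) and none as lower (against 0.492%). The 3 values of a genotype lay wholly above those of the other for 5 members in the direction of DdblGata1 (Sp100, Irf1, Ifih1, Cmpk2 and Gbp2; 11.1%, against 8.98% of all genes) and for 1, Lgals3bp, in the direction of wild-type (2.22%, against 7.34%). Sp100 apart, the shares of members called or separated are near the shares of all genes or below them.

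**Figure D1:**
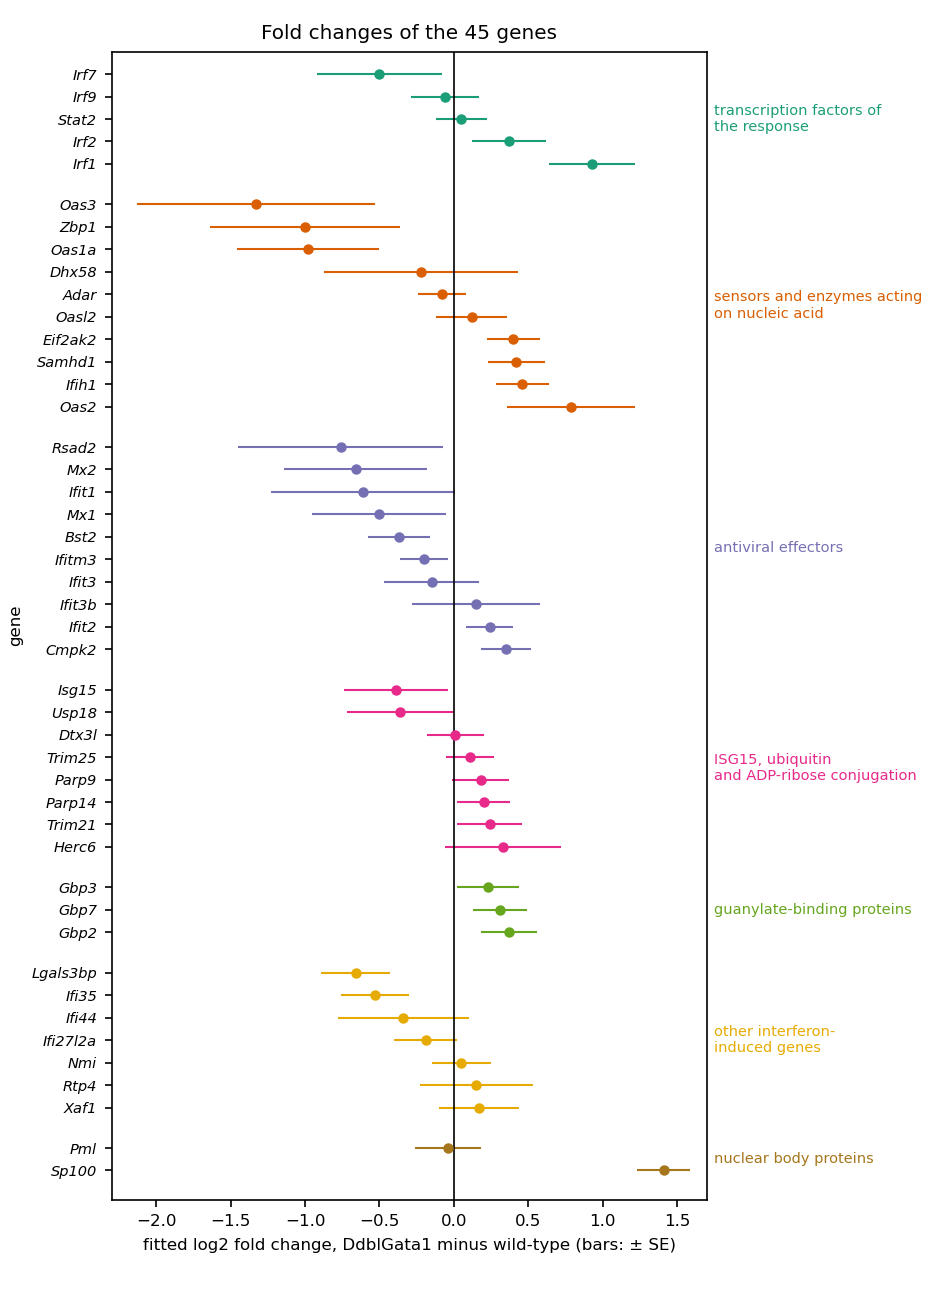
Fitted log2 fold changes of the 45 genes, DdblGata1 minus wild-type (horizontal axis, log2 units; points are edgeR estimates, bars ± SE), grouped by role. Sp100 lies at 1.41 and the other genes lie on both sides of 0, from -1.33 (Oas3) to 0.93 (Irf1).

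Sp100 (ENSMUSG00000026222, chromosome 1, 85649988 to 85709998, plus strand, GRCm38) encodes a SUMO-modified nuclear body protein that binds chromatin. Its expression was 14.3, 10.9 and 14.0 CPM in wild-type replicates 1, 3 and 4 and 32.3, 33.3 and 38.6 CPM in DdblGata1 replicates 4, 9 and 10. The lowest DdblGata1 library lay above the highest wild-type library by more than the range within either genotype. The means were 13.1 ± 1.88 and 34.7 ± 3.39 CPM (SD, n = 3 each), and the fitted log2 fold change was 1.41 ± 0.18 (SE). Sp100 had the smallest p of all genes in both tools, 4.88e-05 unadjusted with edgeR and 5.25e-12 with DESeq2. The adjusted p was 0.384 with edgeR, a value 252 genes shared as the lowest of the table, and 7.69e-08 with DESeq2, so Sp100 passed the threshold with DESeq2 alone. Over the alternatives tried, the adjusted p ran from 7.69e-08 to 0.899. Leaving out each library in turn gave log2 fold changes of 1.30 to 1.46 with edgeR and kept the DESeq2 call each time, at adjusted p of 2.4e-07 to 8.53e-05.

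Pml (ENSMUSG00000036986, chromosome 9, 58218076 to 58249786, minus strand) encodes the scaffold protein of the same bodies. It was at 40.8, 30.5 and 42.5 CPM in wild-type and at 47.9, 30.4 and 32.5 CPM in DdblGata1 libraries. The highest and the lowest value were both from DdblGata1, and the genotypes overlapped throughout. The log2 fold change was -0.04 ± 0.22 (edgeR's quasi-likelihood test, unadjusted p 0.867), and its sign depended on the processing and on single libraries. Per transcript length the 2 genes were near each other in wild-type: the ratio of Sp100 to Pml in TPM, a level corrected for transcript length and depth, was 0.886, 0.907 and 0.836 in replicates 1, 3 and 4. The DdblGata1 libraries (replicates 4, 9 and 10) had ratios of 1.71, 2.78 and 3.01, above every wild-type ratio. These ratios include short models of few counts. Pml-203, of 427 bases, made up 33.8%, 16.3% and 17.7% of Pml TPM in wild-type from 10.1, 4.71 and 5.08 estimated counts. Without each gene's shortest coding model, wild-type had 16.1, 13.2 and 16.3 TPM of Sp100 and 13.3, 12.2 and 18.1 TPM of Pml. The DdblGata1 libraries then had 30.6, 39.5 and 49.2 TPM of Sp100 and 21.2, 13.5 and 13.3 TPM of Pml.

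**Figure D2:**
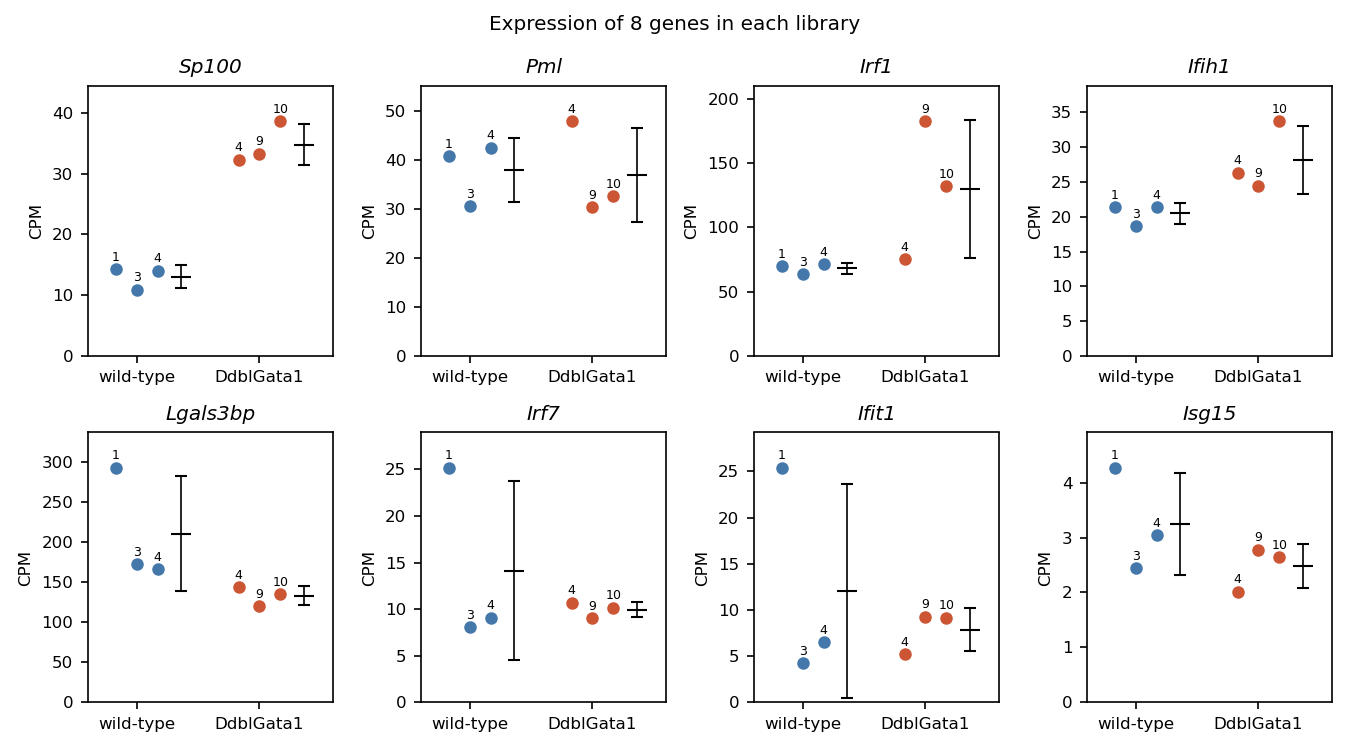
Expression of 8 of the genes in each library, in TMM-scaled CPM (vertical axis from 0, a separate scale in each panel); numbers are replicate numbers, and the bar beside each group is the mean ± SD of 3 libraries. Sp100 separates the genotypes (10.9 to 14.3 against 32.3 to 38.6), Irf1 is high in DdblGata1 replicates 9 and 10 only, and Lgals3bp, Irf7 and Ifit1 are highest in wild-type replicate 1.

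The transcripts of Sp100 were compared to see which of them carried the gene's value. Sp100-202, of 2708 bases, held the most estimated counts in every library, with 290, 210.0 and 178 counts in the wild-type libraries against 349, 370 and 627 counts in the DdblGata1 libraries. It was higher in every DdblGata1 than in any wild-type library, and so were Sp100-204 (49.9 to 74.0 against 90.7 to 193 counts) and Sp100-210 (30.3 to 66.9 against 102 to 221 counts). The short coding model Sp100-207, of 409 bases, behaved otherwise. In DdblGata1 replicate 4 it was given 13.2 TPM, or 30.1% of the gene's TPM there, from 11.9 estimated counts, whereas in replicate 10 it had 0.584 TPM, or 1.17%. The gene table scales TPM by length, so this model weighs on the gene's value in replicate 4. Without it the gene's sum was 16.1, 13.2 and 16.3 TPM in wild-type and 30.6, 39.5 and 49.2 TPM in DdblGata1, a ratio of means of 2.62 in place of 2.80. Plain sums of estimated counts were 499, 378 and 409 against 693, 935 and 1327, a ratio of 2.30 before scaling between libraries, and edgeR on plain sums gave a log2 fold change of 1.25. Of the 31-base words of Sp100 transcripts, 7.89% also occur in transcripts of other genes. Gm7609, Gm7582, Gm2619 and Gm7592 each shared 3.06% to 3.79% of them, and none of these 4 had more than 6.72 estimated counts in any library.

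**Figure D3:**
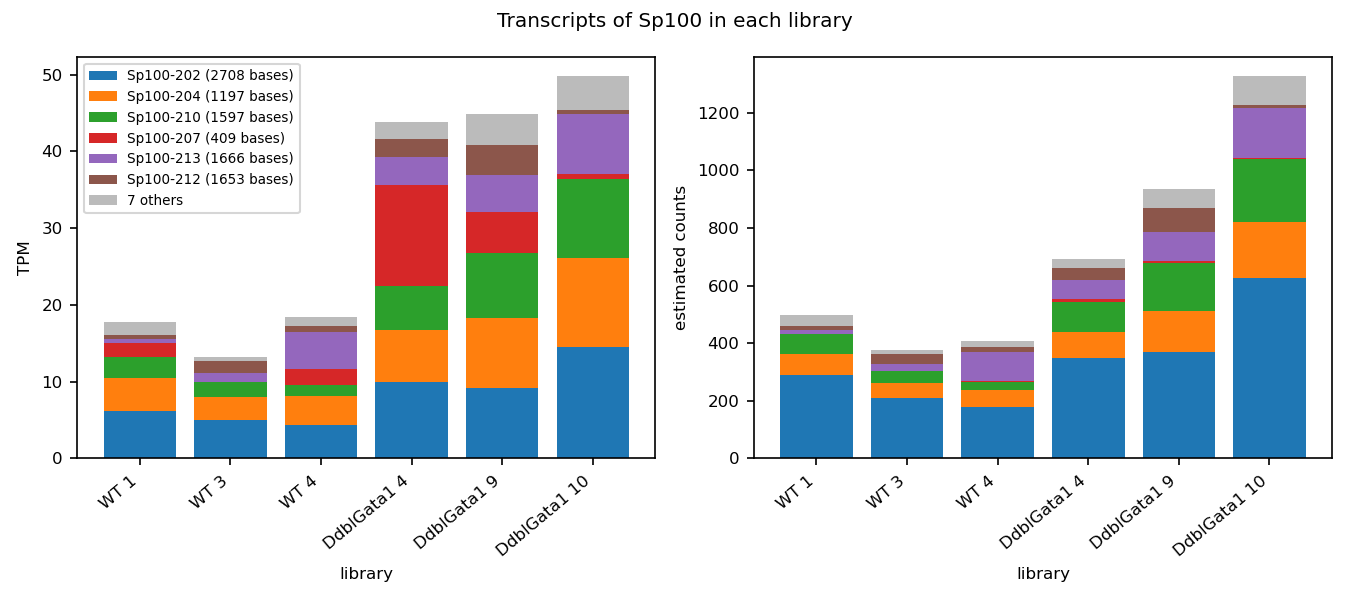
Transcripts of Sp100 in each library, as TPM (left) and as estimated counts (right), stacked, with the 6 transcripts of highest mean TPM in colour and 7 others in grey. Sp100-202, Sp100-204 and Sp100-210 are higher in all 3 DdblGata1 libraries, and Sp100-207 makes up 30.1% of the TPM of DdblGata1 replicate 4 from 11.9 estimated counts.

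Sp100 lies beside 2 genes of its own family, Sp110 and Sp140, which encode related chromatin readers. Sp110 was at 2.41, 2.10 and 1.93 CPM in wild-type and 2.75, 4.43 and 5.81 CPM in DdblGata1 libraries, without overlap, with a log2 fold change of 1.01 ± 0.36 (edgeR's quasi-likelihood test, unadjusted p 0.0233, adjusted p 0.45). Sp140, which ends 4951 bases before Sp100 begins, was at 7.23, 4.79 and 5.46 against 6.67, 7.05 and 13.0 CPM, overlapping, with a log2 fold change of 0.61 ± 0.33. Both values are uncertain, since 52.9% of the words of Sp110 and 52.5% of those of Sp140 occur in other genes. Among the 24 measured genes within 1 Mb of Sp100 the median log2 fold change was 0.05. At an unadjusted p under 0.05, 2 were higher (against 6.03% of all genes) and 3 lower (against 4.23%). The groups did not overlap for 2 that were higher (against 8.98% of all genes) and 4 that were lower (against 7.34%). DESeq2 called 1 of the 24 as lower (against 0.492% of all genes with an adjusted p) and none as higher. This was Dner, a transmembrane ligand of Notch, at -1.01 ± 0.24 (DESeq2 adjusted p 0.0195). On the other side of Sp100, Cab39, a kinase scaffold, had 0.07 ± 0.14 and Itm2c, a membrane protein, had -0.39 ± 0.24.

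**Figure D4:**
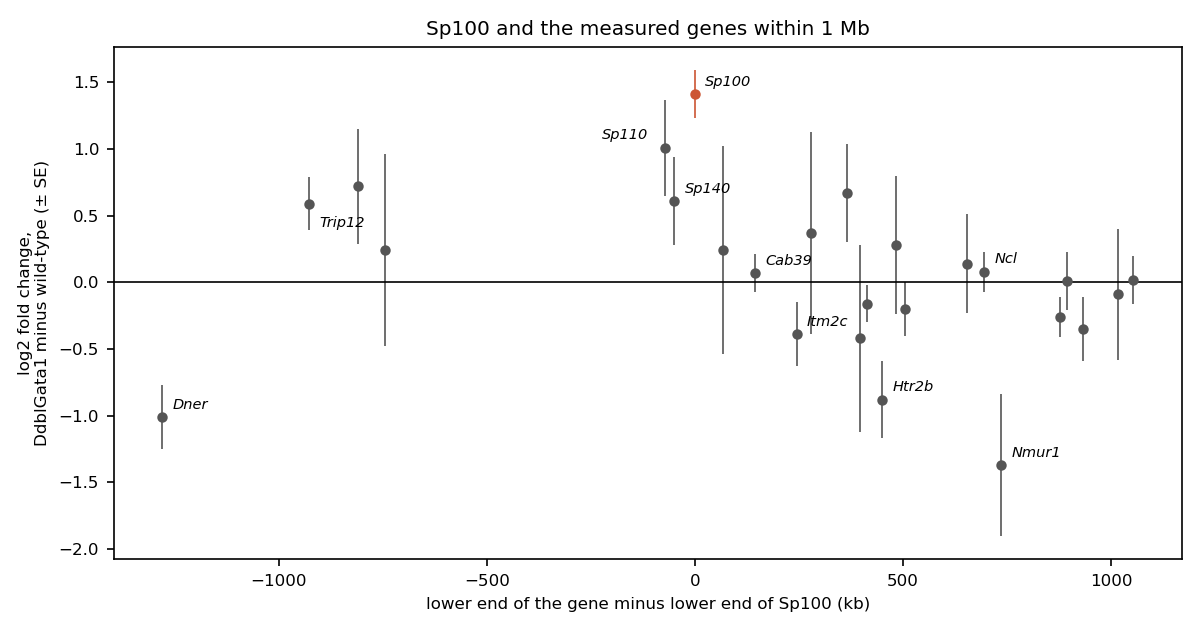
Fitted log2 fold change, DdblGata1 minus wild-type (vertical axis, ± SE), of Sp100 and of the 24 measured genes within 1 Mb, against the distance of each gene's lower end from that of Sp100 (horizontal axis, kb). Sp110 (1.01) and Sp140 (0.61) lie next to Sp100 (1.41), and the other genes lie on both sides of 0, from -1.37 (Nmur1) to 0.72 (Fbxo36).

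Of 20 nuclear body partners of SP100 and PML, all measured, 4 were higher (20%, against 6.03% of all genes) and 1 lower (5%, against 4.23%) at an unadjusted p under 0.05, and neither edgeR nor DESeq2 called any. The 4 include Sp110, the neighbour of Sp100 described above, whose value is uncertain. ATRX, which with DAXX places the histone variant H3.3 at heterochromatin, was encoded by transcripts at 118, 144 and 146 CPM in wild-type and 180, 202 and 249 CPM in DdblGata1 libraries. The Atrx values did not overlap, and the log2 fold change was 0.63 ± 0.17 (edgeR unadjusted p 0.00613, adjusted p 0.384; DESeq2 adjusted p 0.0777). Morc3, an ATPase found in PML bodies, was at 28.9, 33.8 and 28.7 against 36.6, 45.8 and 75.2 CPM. Its groups did not overlap either (log2 fold change 0.79 ± 0.26). The transcription factor Ets1, whose product SP100 binds, was lower in each DdblGata1 library, at 56.2 to 67.8 CPM against 81.9 to 90.3 CPM in wild-type (log2 fold change -0.44 ± 0.14).

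Among the 5 transcription factors of the response, Irf1 differed most. It was at 70.0, 63.3 and 71.0 CPM in wild-type libraries and at 75.4, 182 and 132 CPM in DdblGata1 replicates 4, 9 and 10. Only replicates 9 and 10 stood clear of wild-type; replicate 4 exceeded the highest wild-type library by less than the wild-type range. The log2 fold change was 0.93 ± 0.29 (edgeR's quasi-likelihood test, unadjusted p 0.0114, adjusted p 0.416; DESeq2 adjusted p 0.0929). Without DdblGata1 replicate 4 it was 1.21, and DESeq2 then called it (1.20, adjusted p 2.86e-06). In that setting DESeq2 called 1025 genes over the whole table, the most with any library left out. With edgeR, 9.61% of all genes were then higher at an unadjusted p under 0.05, against 6.03% with all libraries. Without replicate 9 the log2 fold change of Irf1 was 0.59. Irf1 is also an early response gene, and the summed level of 19 early response genes of tissue dissociation was 7253 to 7552 CPM in wild-type libraries. In DdblGata1 replicates 4, 9 and 10 the sum was 9836, 11660 and 9829 CPM. Replicate 4, where Irf1 was near wild-type, thus had a sum like that of replicate 10. Of the 19, 13 were higher at an unadjusted p under 0.05 (against 6.03% of all genes). DESeq2 called 4 as higher (against 0.971% of all genes with an adjusted p). The T cell gene Cd3e was at 5.10 and 4.26 CPM in the same replicates 9 and 10 and at 0.147 to 1.22 CPM in the other 4 libraries. Cd68, a macrophage gene, was also highest in these libraries, at 7.12 and 5.78 CPM against 2.06 to 5.43 CPM, but the list as a whole was not high there. Ptprc, which all leukocytes carry, was at 0.794 and 0.969 CPM in replicates 9 and 10 and at 0.697 to 4.06 CPM elsewhere, the summed level of the 12 markers was 42.1 and 38.8 CPM against 39.9 to 115 CPM, and 9 of the 12 had log2 fold changes below 0. The part of either in the Irf1 values was not tested.

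The other 4 factors did not separate the genotypes. Irf2, which competes with IRF1 for its sites, was at 25.8, 30.5 and 23.3 CPM in wild-type and 28.01, 26.8 and 48.1 CPM in DdblGata1; DdblGata1 replicate 10 alone was high, and without it the log2 fold change of 0.37 ± 0.25 fell to 0.03. Irf9 and Stat2, which encode DNA-binding and activating subunits of the ISRE complex, had log2 fold changes of -0.06 ± 0.23 and 0.05 ± 0.17. Irf7, the factor that amplifies type I interferon, was at 25.2 CPM in wild-type replicate 1 and at 8.10 to 10.7 CPM in the other 5 libraries.

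Of the 10 sensors and enzymes acting on nucleic acid, 5 had values above 0 and 5 below, and 1, Ifih1, had an unadjusted p under 0.05. Ifih1 encodes MDA5, a sensor of long double-stranded RNA. It was at 21.4, 18.7 and 21.4 CPM in wild-type and 26.3, 24.5 and 33.7 CPM in DdblGata1 libraries. The groups did not overlap, and the log2 fold change was 0.46 ± 0.18 (edgeR's quasi-likelihood test, unadjusted p 0.0345, adjusted p 0.475; DESeq2 adjusted p 0.338). Eif2ak2, the RNA-activated kinase PKR, was at 23.9, 28.8 and 26.6 against 28.6, 36.5 and 39.3 CPM, with replicate 4 of DdblGata1 inside the wild-type range (0.40 ± 0.18). Samhd1, which hydrolyses deoxynucleotides, was at 42.3, 36.5 and 57.0 against 63.0, 52.8 and 65.6 CPM, again with overlap (0.42 ± 0.19). Adar, the RNA editing enzyme ADAR1, had a log2 fold change of -0.08 ± 0.16.

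The oligoadenylate synthetases, which make the activator of RNase L, had fitted log2 fold changes on both sides of 0. Oas1a was at 6.37, 2.00 and 4.16 CPM in wild-type and 2.05, 2.81 and 1.49 CPM in DdblGata1 libraries, with a log2 fold change of -0.98 ± 0.48. Wild-type replicate 3 lay within the DdblGata1 range, and 68.8% of the words of Oas1a occur in other genes, nearly all in Oas1g, so its count is uncertain. Oas2 was at 1.59, 0.931 and 0.982 against 1.58, 2.71 and 1.78 CPM (0.79 ± 0.43), with wild-type replicate 1 just above the lowest DdblGata1 library. Oas3 was the least abundant member per length, at a mean of 0.229 TPM.

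The 10 antiviral effectors had a median log2 fold change of -0.28, with 3 above 0 and 7 below, and none had an unadjusted p under 0.05. Cmpk2, a mitochondrial nucleotide kinase, was the only effector whose groups did not overlap, at 14.5, 15.7 and 15.2 CPM in wild-type and 18.0, 17.7 and 22.1 CPM in DdblGata1 (0.35 ± 0.17; edgeR unadjusted p 0.0756). Bst2, or tetherin, which holds budding virus at the membrane, was at 18.6, 16.3 and 20.3 against 16.3, 10.8 and 15.6 CPM (-0.37 ± 0.21). DdblGata1 replicate 9 was the lowest, and the groups overlapped narrowly, at wild-type replicate 3 and DdblGata1 replicate 4. Ifitm3, a membrane protein that blocks virus entry, was the most abundant member per length, at 502 to 617 TPM in wild-type and 476 to 639 TPM in DdblGata1, and these ranges overlapped (-0.20 ± 0.16). Of its words 20.5% occur in other genes. Ifit3 and Ifit3b share 61.8% and 55.2% of their words with other genes, mostly each other, and their fold changes of -0.15 ± 0.32 and 0.15 ± 0.43 cannot be taken apart.

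Genes of ISG15, ubiquitin and ADP-ribose conjugation included the ubiquitin-like modifier itself. Isg15 was at 4.27, 2.45 and 3.04 CPM in wild-type and 2.02, 2.78 and 2.65 CPM in DdblGata1, overlapping (-0.39 ± 0.35). Usp18, the protease that removes ISG15 and dampens the type I receptor, had -0.36 ± 0.36. The remaining 6 genes of the group lay between 0.01 and 0.33. Of these, Parp14, a mono-ADP-ribosyltransferase, was at 31.5, 25.0 and 30.0 against 32.0, 28.3 and 39.3 CPM (0.20 ± 0.18), and Dtx3l and Parp9, which act as a complex and are transcribed from overlapping loci, had 0.01 ± 0.19 and 0.18 ± 0.19. Of the 8 genes, 6 were highest in DdblGata1 replicate 10 and 2 in wild-type replicate 1.

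The 3 guanylate-binding proteins, GTPases that attack pathogen vacuoles, had log2 fold changes of 0.23 to 0.37. Gbp2 was at 31.9, 28.6 and 35.2 CPM in wild-type and 36.4, 35.8 and 51.7 CPM in DdblGata1 (0.37 ± 0.19; edgeR unadjusted p 0.0865). Its groups did not overlap, although 2 of the 3 DdblGata1 values exceeded the highest wild-type value by less than the wild-type range. Gbp7 was at 30.5, 30.2 and 29.5 against 29.7, 36.4 and 45.3 CPM (0.31 ± 0.18). All 3 genes were highest in DdblGata1 replicate 10, and without that library the log2 fold change of Gbp2 was 0.16, that of Gbp3 0.00 and that of Gbp7 0.12.

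Of the 7 other interferon-induced genes, Lgals3bp had the smallest p of any member on the side of wild-type. It encodes a secreted, galectin-binding glycoprotein (chromosome 11, 118392751 to 118402092, minus strand). It was at 293, 173 and 166 CPM in wild-type and 144, 120.1 and 135 CPM in DdblGata1 libraries. The groups did not overlap, but wild-type replicate 1 was 1.7 times the next library. The log2 fold change was -0.66 ± 0.23 (edgeR's quasi-likelihood test, unadjusted p 0.0214, adjusted p 0.445; DESeq2 adjusted p 0.189), and without that replicate it was -0.37. Ifi35, a partner of NMI, was at 20.4, 14.9 and 13.6 against 13.6, 9.70 and 10.6 CPM (-0.53 ± 0.23; edgeR unadjusted p 0.0504). Here too wild-type replicate 1 was highest, and its absence left -0.36. Ifi27l2a, a small mitochondrial and nuclear membrane protein, was among the most abundant members, at 141 to 215 TPM in wild-type and 147 to 187 TPM in DdblGata1 (-0.19 ± 0.21). Of the 45 genes, 4 had a mean of at least 100 TPM and 41 at least 1 TPM.

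**Figure D5:**
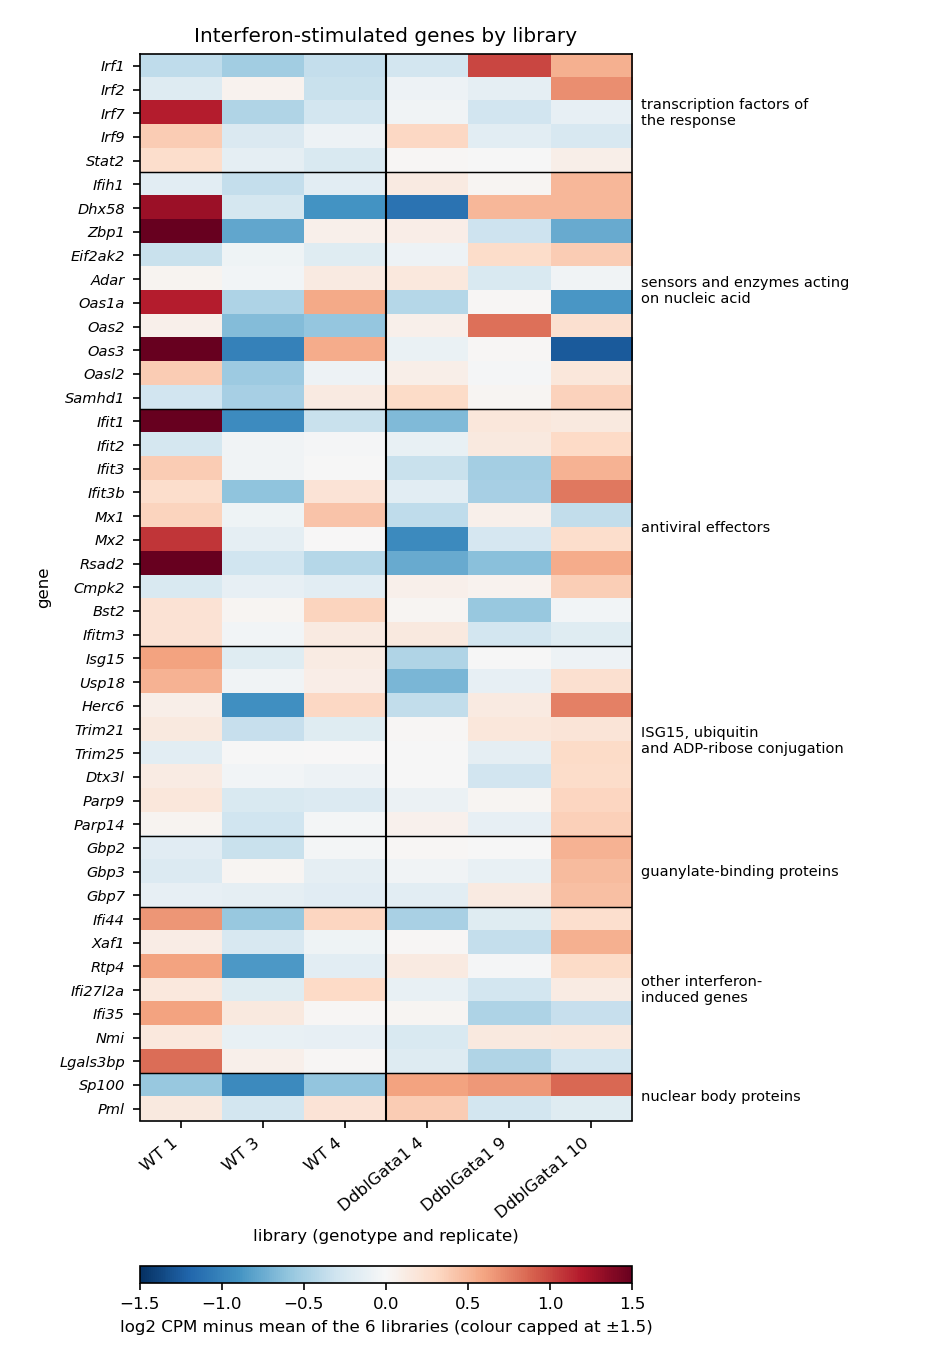
The 45 genes (rows, grouped by role) in the 6 libraries (columns), as log2 CPM minus the mean of the 6 libraries, with colour capped at ±1.5. Wild-type replicate 1 (18 genes highest) and DdblGata1 replicate 10 (20 genes highest) carry most of the high values, and the genotypes do not overlap in 6 rows, Sp100 among them.

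The highest values of the members lay mostly in 2 libraries of different genotype. Wild-type replicate 1 was the highest library for 18 of the 45 (40%; 24.9% of all genes) and DdblGata1 replicate 10 for 20 (44.4%; 24.3% of all genes). Wild-type replicate 3 was the lowest for 17 (against 12.8% of all genes) and the highest for none (against 11.9%). In 9 members the value of wild-type replicate 1 was at least 1.5 times that of the next library, as it was in 5.8% of all genes. These were Irf7, Dhx58, Zbp1, Oas1a, Oas3, Ifit1, Mx2, Rsad2 and Lgals3bp, most of them chosen for naming after their values were seen. Ifit1, which binds viral RNA lacking a methylated cap, was at 25.4, 4.28 and 6.51 CPM in wild-type and 5.21, 9.30 and 9.17 CPM in DdblGata1. With all libraries its log2 fold change was -0.61 ± 0.62 and without wild-type replicate 1 it was 0.53. Zbp1, a sensor of Z-form nucleic acid, was at 6.37 CPM in that library and at 1.10 to 2.09 CPM in the other 5. The same library had the high sums of epithelial and leukocyte markers given above (Epcam at 110 CPM against 14.0 to 25.8 CPM, Ptprc at 4.06 against 0.697 to 1.38 CPM). The part of those cells in the members' values was not tested.

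Without wild-type replicate 1 the median log2 fold change of the members was 0.19 beside 0.00 over all genes, and 11 members lay wholly higher in DdblGata1 (13% of all genes did) and 3 wholly lower (12.7% of all genes). At an unadjusted p under 0.05, 3 were then higher (4.34% of all genes) and 1 lower (3.53%), as many as with all libraries. Without DdblGata1 replicate 4, 5 were higher (9.61% of all genes) and 3 lower (8.2%) at that p, and 10 lay wholly higher (20.6% of all genes) and 5 wholly lower (19%). Without wild-type replicate 3, 8 lay wholly higher (13.9% of all genes) and 8 wholly lower (12.1%), and without wild-type replicate 4 these were 6 (14.3%) and 2 (13.2%). Without DdblGata1 replicate 9, 7 lay wholly higher (11.4%) and 4 wholly lower (11.9%), and without DdblGata1 replicate 10, 5 (10.7%) and 7 (10.9%). Without DdblGata1 replicate 10 the median was -0.03, and without wild-type replicate 3 it was -0.08, so the sign of the median rests on single libraries. In DdblGata1 replicate 10 the endothelial receptor gene Tek was at 151 CPM, against 28.8 to 89.2 CPM in the other 5 libraries. The sum of the other 8 endothelial markers was lowest there, at 20.6 CPM against 24.1 to 33.2 CPM, and Cdh5, Kdr, Emcn and Cldn5 were lowest in that library.

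The rest of the pathway was described with 7 lists of 148 genes, 120 of them measured. Of these, 15 were higher (12.5%, against 6.03% of all genes) and 4 lower (3.33%, against 4.23%) at an unadjusted p under 0.05. While edgeR called none, DESeq2 called 4 as higher (against 0.971% of all genes with an adjusted p) and 0 as lower (against 0.492%). The median log2 fold change over the 120 was 0.04. Of 15 interferon ligands none was in the gene table. The transcript files listed 13 of them at 0 in every library, while Ifnz had 9.38 and Ifng 4 estimated counts, both in DdblGata1 replicate 10 and in no other library. The count of Ifnz is uncertain, since 83.4% of its words occur in other genes.

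Among 11 receptors and signal transducers, 1 was called as higher by DESeq2 (against 0.971% of all genes with an adjusted p). Ifnar1, a chain of the type I interferon receptor, was at 55.9, 62.1 and 64.1 CPM in wild-type and 82.7, 87.2 and 97.0 CPM in DdblGata1, without overlap (0.55 ± 0.14; edgeR unadjusted p 0.00378, adjusted p 0.384; DESeq2 adjusted p 0.0491). The kinase Jak2 had 0.27 ± 0.16.

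Of 19 measured genes of nucleic acid and microbial sensing, 4 were higher (21.1%, against 6.03% of all genes) at an unadjusted p under 0.05 and none lower, with no call by either tool. Tlr4, the receptor of bacterial lipopolysaccharide, was at 14.0, 23.6 and 22.0 against 28.6, 33.1 and 51.1 CPM (0.92 ± 0.28). Tlr3, a receptor of double-stranded RNA, was at 7.81, 11.7 and 16.9 against 17.5, 25.3 and 23.0 CPM (0.85 ± 0.29), and the kinase Tbk1, which phosphorylates IRF3, at 19.4, 16.2 and 21.2 against 30.7, 24.4 and 26.9 CPM (0.53 ± 0.18). None of these 3 overlapped between genotypes. Over the 19 genes, the groups did not overlap for 4 that were higher (against 8.98% of all genes) and 2 that were lower, Rnaseh2a and Rnaseh2c (against 7.34%). None of the 10 genes listed as brakes of signalling had an unadjusted p under 0.05, and their log2 fold changes lay between -0.20 and 0.17. The 10 include Isg20, which is not a known brake and was also listed among the further interferon-induced genes.

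Among 46 measured further interferon-induced genes, 2 were higher (4.35%, against 6.03% of all genes) and 1 lower (2.17%, against 4.23%) at an unadjusted p under 0.05. DESeq2 called the 2 higher ones (against 0.971% of all genes with an adjusted p). Slfn5, a Schlafen family protein, was at 41.3, 109 and 78.5 CPM in wild-type and 178, 180.4 and 217 CPM in DdblGata1 (1.33 ± 0.32; DESeq2 adjusted p 0.0106; edgeR adjusted p 0.384). Trim30a, a TRIM ubiquitin ligase, was at 1.95, 2.90 and 1.57 against 4.33, 6.72 and 8.17 CPM (1.58 ± 0.37; DESeq2 adjusted p 0.0142; edgeR adjusted p 0.384), and 11.9% of its words occur in other genes. Neither gene overlapped between genotypes. Over the 46 genes, the groups did not overlap for 5 that were higher (against 8.98% of all genes) and 2 that were lower (against 7.34%). Slfn2, of the same family as Slfn5, was at 3.29, 1.24 and 0.949 against 0.660, 0.827 and 0.291 CPM (-1.62 ± 0.64), and wild-type replicate 1 was again the highest.

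Of 17 measured interferon-gamma-inducible GTPases and partners, 4 were higher (23.5%, against 6.03% of all genes) and 2 lower (11.8%, against 4.23%) at an unadjusted p under 0.05. DESeq2 called 1 as higher (against 0.971% of all genes with an adjusted p). This was Cxcl10, a chemokine for CXCR3-bearing lymphocytes, at 4.36, 4.66 and 5.04 CPM in wild-type and 10.0, 17.4 and 10.4 CPM in DdblGata1 (1.43 ± 0.28; edgeR unadjusted p 0.000858, adjusted p 0.384; DESeq2 adjusted p 0.00199). The lowest DdblGata1 value was well above the wild-type range, and replicate 9 was the highest, as it was for Irf1. Cxcl9, another ligand of CXCR3, was lower at that p, at 1.01, 3.28 and 1.28 CPM in wild-type and 1.03, 0.629 and 0.452 CPM in DdblGata1, with overlap (-1.40 ± 0.60; edgeR unadjusted p 0.0467, adjusted p 0.483). Tgtp2 (-1.80 ± 0.67) and Gbp10 (1.12 ± 0.43) are uncertain, since 90.5% and 89.8% of their words occur in other genes.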

How the data were processed

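Bulk RNA of 3 wild-type and 3 DdblGata1 libraries was compared, grouped by the genotype in the labels. The members and all gene lists were chosen with earlier results of these data known. Per the submitters' processing notes, bcl2fastq 2.2, kallisto, R 4.2.2 and DESeq2 were used with mm10 and GRCm38.p6; the step each tool served was not stated. Whole-number estimated (expected) counts per gene were deposited, with at least 10 in at least 3 libraries for each gene. Of its values 99.7% equalled length-scaled TPM computed from the authors' deposited transcript files (within 1% plus 1 count), and 26.2% equalled plain sums, so it was read as length-scaled. The transcript files hold kallisto's estimated counts and TPM, as deposited. A deposited sheet lists size factors (a ratio) and 2 surrogate variables (scores) of unstated method, of which only the latter were used, in an alternative. Transcripts were placed on genes with GENCODE M21.

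Genes were tested with edgeR 4.0.16 in R 4.3.3 on the whole table (TMM, filterByExpr, which removed 0 genes, robust quasi-likelihood fit, Benjamini-Hochberg adjustment, threshold 0.05), with no covariate. CPM are TMM-scaled, and log2 fold changes are edgeR's estimates. The quasi-likelihood test gives no SE, so each SE is the absolute log2 fold change divided by the square root of that test's F statistic. The tests were tried on simulated data first. Named were Sp100, Pml, the 12 members of smallest p, the 4 of highest mean TPM, at least 2 per role and up to 3 per pathway list; others were named after their values were seen, and 1 gene the rule took is not reported here. Shared sequence was counted as 31-base words found in transcripts of other genes. Alternatives were DESeq2 1.42.0, limma 3.58.1 (voom; trend on log2 TPM with a pseudocount of 1 or 0.1), other scalings, a minimum of 5 CPM, no filter, plain transcript sums, the surrogate variables and leaving out each library. DESeq2 without each library and DESeq2 with the surrogate variables were added after the data were seen.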

Additional observations from a re-analysis of the deposited data

How the results depend on the processing

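No paired analysis was possible because the groups share only replicate number 4. With 3 libraries per genotype, a member's log2 fold change had an SE of 0.16 or more among the named genes. Differences of that size or less were not detectable. Larger ones did not pass with edgeR either, up to the 1.41 ± 0.18 of Sp100 (edgeR's quasi-likelihood test, adjusted p 0.384). Over the whole table edgeR called 0 genes and DESeq2 214, or 449 with the deposited surrogate variables; leaving out each library gave 0 to 1 with edgeR (1 without DdblGata1 replicate 4) and 43 to 1025 with DESeq2 (43 without DdblGata1 replicate 10, 1025 without DdblGata1 replicate 4). Members called were 0 with edgeR, 1 with DESeq2 and 1 with DESeq2 and the surrogate variables, and 0 to 0 and 1 to 2 when each library was left out; the second member was Irf1, without DdblGata1 replicate 4. Sp100 passed with DESeq2 (1.40), with the surrogate variables (1.43) and without each library (1.30 to 1.47), and with edgeR or limma it did not; edgeR without each library gave 1.30 to 1.46. Members higher at an unadjusted p under 0.05 were 3, against 6 with limma-trend on log2(TPM + 1), 6 on log2(TPM + 0.1) and 2 to 5 without each library (5 without DdblGata1 replicate 4). With limma-trend the median of all genes was 0.06 and 0.08, against -0.01. Without each library, edgeR had 2.9% to 9.61% of all genes higher and 2.47% to 8.2% lower at that p. The shares of all genes with limma-trend, in TPM, with other scalings and with plain sums are not given here, so the counts of members there cannot be set against them. Members lower were 1, against 2 with relative-log-expression scaling, upper-quartile scaling, plain transcript sums or DESeq2, 0 with limma-trend at either pseudocount and 0 to 4 without each library (4 without wild-type replicate 3, 3 without DdblGata1 replicate 4, 2 without wild-type replicate 4 and, with edgeR, 0 without DdblGata1 replicate 9). Members wholly higher were 5, against 9 in TPM and 5 to 11 without each library (11 without wild-type replicate 1, 10 without DdblGata1 replicate 4, 8 without wild-type replicate 3), where 10.7% to 20.6% of all genes were wholly higher. Members wholly lower were 1, against 3 with relative-log-expression or upper-quartile scaling or plain sums, 2 with library totals only and 2 to 8 without each library (8 without wild-type replicate 3, 7 without DdblGata1 replicate 10), where 10.9% to 19% of all genes were wholly lower. The log2 fold change of Pml changed sign with limma-trend (0.03 at either pseudocount), with the surrogate variables (0.16 with edgeR, 0.15 with DESeq2), with plain sums (0.07) and without single libraries (-0.27 to 0.07 with edgeR, -0.28 to 0.08 with DESeq2). The causes of these changes were not tested. Of the 19 members the naming rule took, Pml alone changed sign, and besides Sp100 only Irf1 changed its side of the threshold, called by DESeq2 without DdblGata1 replicate 4 (1.20). Sizes did change: with plain sums Oas2 went from 0.79 to 0.37, Irf2 from 0.37 to 0.15 and Samhd1 from 0.42 to 0.22. Irf1 (0.94), Cmpk2 (0.37) and Gbp2 (0.39) changed little with plain sums. Over all 45 members, 18 changed sign in at least 1 alternative. With edgeR, 5 did so without wild-type replicate 1 (Irf7, Irf9, Dhx58, Ifit1 and Rsad2) and 8 without DdblGata1 replicate 10, among them Irf9 and Ifit3b. No scaling of the counts moved the median of all genes by over 0.1.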

Other observations

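With all libraries, the fitted log2 fold changes of members that lie side by side in the genome differed in some clusters and were alike in others. On chromosome 3, Gbp7, Gbp3 and Gbp2 had log2 fold changes of 0.31 ± 0.18, 0.23 ± 0.21 and 0.37 ± 0.19, and on chromosome 16, Parp14, Dtx3l and Parp9 had 0.20 ± 0.18, 0.01 ± 0.19 and 0.18 ± 0.19. All 6 were highest in DdblGata1 replicate 10. In the Oas cluster of chromosome 5, Oas2, Oas3 and Oas1a had log2 fold changes of 0.79 ± 0.43, -1.33 ± 0.80 and -0.98 ± 0.48, and only Oas2 was highest in a DdblGata1 library. In the Ifit cluster of chromosome 19, Ifit2 had 0.24 ± 0.16 and varied between 30.8 and 45.9 CPM, whereas Ifit1 varied between 4.28 and 25.4 CPM. Rsad2 and Cmpk2, neighbours on chromosome 12, had -0.76 ± 0.69 and 0.35 ± 0.17. Wild-type replicate 1 held the highest value of Rsad2 (3.54 CPM) and the lowest of Cmpk2 (14.5 CPM). Without that replicate Rsad2 and Cmpk2 had 0.21 and 0.30, and Ifit1 and Ifit2 had 0.53 and 0.14. Oas2, Oas3 and Oas1a then had 1.05, -0.39 and -0.56. Oas3 was low, at 0.194 to 2.10 CPM, and 68.8% of the words of Oas1a occur in other genes. With all libraries none of the genes named here passed an adjusted p of 0.05 with edgeR or DESeq2.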
